A study of Mus musculus with 24 samples.

Results

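The fucosyltransferases, the enzymes that attach the sugar fucose to proteins and glycans, were followed across 8 lines of MC38 cells. MC38 is a mouse colon cancer line from the C57BL/6 strain. The set held Fut1, Fut2, Fut4, Fut7, Fut8, Fut9, Fut10, Fut11, Pofut1 and Pofut2, and all 10 were found by symbol among the 52636 gene identifiers measured.

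Fucosyltransferases transfer fucose from GDP-fucose, a nucleotide sugar made in the cytosol and carried into the secretory pathway. Fut4, Fut7 and Fut9 add α1,3-linked fucose near the ends of glycan chains and so build Lewis X or sialyl Lewis X, of which Fut9 is known for Lewis X. Fut1 and Fut2 add α1,2-linked fucose to terminal galactose, Fut8 adds the core fucose of N-glycans, and Pofut1 and Pofut2 work in the endoplasmic reticulum, where they place fucose directly on folded EGF repeats and thrombospondin repeats. Fut10 and Fut11 resemble the α1,3-enzymes in sequence and have been described as acting on EMI domains of proteins in the endoplasmic reticulum.

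RNA from 3 samples of each of the 8 lines was sequenced, each sample labelled with its passage. MC38-WT was unmodified and cultured without puromycin (passages 7, 8 and 9), whereas the other 7 lines were all kept under puromycin. Another 4 groups came from CRISPR-Cas9 at passages 4, 5 and 6, namely MC38-MOCK#1 with no target gene, MC38-COSMC KO (target COSMC, gene C1galt1c1), MC38-CMAS KO (target CMAS) and MC38-DKO (both targets). CRISPR-dCas-VPR, a catalytically dead Cas9 fused to a transcriptional activator that raises an endogenous gene, was used for MC38-MOCK#2 with no target gene (passages 6, 7 and 8), MC38-FUT4 (passages 7, 8 and 7) and MC38-FUT9 (passages 6, 7 and 8). The MC38-COSMC KO line was described as a bulk population, sorted for high binding of a lectin that recognises the Tn antigen, and not as 1 clone; how the cells of the activation lines were picked is not given in the sources used here. No separate transfections were labelled as replicates, so p-values measure the spread between passages of 1 line and not between independently made lines. In MC38-FUT4 replicates 1 and 3 were both of passage 7, so its spread lies partly within a passage.

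Values are normalized counts, that is, reads per gene scaled by library size and rounded, and they summed to 10911849 to 12263307 per sample. Of the 8 colon epithelial markers examined, none had a median of 10 or more, and Epcam, Cdh1 and Cdx2 did not exceed 3 in any sample, whereas 4 of 5 mesenchymal markers had a median of at least 10. The epithelial sum ranged from 2 to 476, with the highest values in the line labelled FUT4, where Krt20, a keratin of differentiated colon epithelium, was 448, 263 and 468, and its part in the results for that line was not tested. Leukocyte markers summed to 0 to 6 and endothelial markers to 0 to 19 per sample. Cmas, which activates sialic acid, was 117, 93 and 126 in MC38-CMAS KO and 142, 135 and 122 in MC38-DKO, against 416, 384 and 386 in MC38-MOCK#1. C1galt1c1, the chaperone of the enzyme that extends the Tn antigen, was 145, 163 and 124 in MC38-COSMC KO and 206, 166 and 175 in MC38-DKO, against 242, 220 and 251 in MC38-MOCK#1. Both knockout targets were called lower in their single knockouts, and in MC38-DKO only Cmas was. RNA level does not show whether the protein was lost after Cas9 cutting. For its COSMC knockout line the paper reported no activity of the enzyme that extends the Tn antigen, gene mutations and more Tn antigen. The paper does not describe MC38-DKO. The call of C1galt1c1 in MC38-COSMC KO was kept only without MC38-COSMC KO replicate 2 or 3 (adjusted p up to 0.0659 in the other fits), and that of Cmas in MC38-DKO only without MC38-DKO replicate 3 (up to 0.18).

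Because members of this family resemble each other, the most alike stretches of 50 coding bases, the read length, were compared to see how far reads could be shared between them. Capitals mark bases identical in both members of a pair, and all are read 5′ to 3′ on the strand of the gene from GENCODE M21 transcripts on GRCm38. The stretch of Fut4 lies at chr9:14751017-14751066 on the minus strand and that of Fut9 at chr4:25620049-25620098 on the minus strand.
Fut4: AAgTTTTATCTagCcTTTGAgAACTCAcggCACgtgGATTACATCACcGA
Fut9: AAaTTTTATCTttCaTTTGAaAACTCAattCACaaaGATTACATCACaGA
Even in this most similar stretch 12 of 50 bases differed, no stretch of 50 bases was identical between the 2 genes' transcripts, and the longest identical run anywhere was 14 bases. The exons of Fut4 (chr9:14748320-14752393, minus strand) and of Fut9 (chr4:25609332-25800244, minus strand) overlap no other annotated gene on either strand.

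Fut10 (chr8:31187331-31261738, plus strand) and Fut11 (chr14:20694968-20701016, plus strand) were compared in the same way, since their levels across the lines differed in pattern.
Fut10: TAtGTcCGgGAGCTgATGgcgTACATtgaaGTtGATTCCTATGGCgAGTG
Fut11: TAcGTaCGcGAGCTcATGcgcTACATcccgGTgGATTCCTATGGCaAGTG
The stretch of Fut10 lies at chr8:31235906-31235955, and that of Fut11 spans an intron between 20695669 and 20695807 of chromosome 14. They differed at 13 of 50 bases. The exception was Fut2 and its neighbour Sec1, a fucosyltransferase-related gene at chr7:45677686-45694402 that is no member, which share 159 stretches of 50 bases and an identical run of 180 bases, so their reads may not be separable. In addition, 519 exon bases of Sec1, or 21.0%, overlap Ntn5 on the opposite strand, and whether the counting used strand is not given in the sources used here. Apart from this pair, no 50-base stretch was shared between any members.

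MC38 cells expressed mainly the enzymes of the endoplasmic reticulum and of core fucosylation. Per kilobase of exon, the median level over the 24 samples was 154 normalized counts for Pofut1, 78.1 for Pofut2, 53.9 for Fut10, 28.3 for Fut8 and 10.5 for Fut11. The remaining members, those that fucosylate the ends of glycans, were near 0 in unmodified cells. Fut1 was 0 in 20 of 24 samples and never above 2 normalized counts, Fut2 ranged from 0 to 5 and Fut7 from 0 to 4. Fut4 was 0 in 22 samples and 1 in the other two. Zero here allows a level of up to 3 normalized counts, so low expression was not detectable at this depth.

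**Figure D1:**
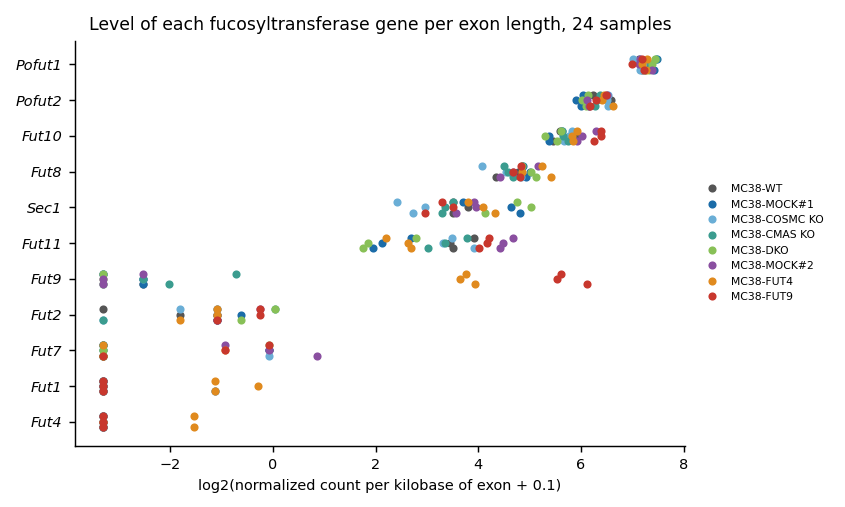
Level of each fucosyltransferase gene and of Sec1 per exon length, as log2 of normalized counts per kilobase of exon plus 0.1, with 1 point per sample coloured by line. Pofut1 lay highest in all 24 samples, and Fut9 was the gene with 2 separate ranges, one for the lines labelled FUT4 and FUT9 and one near 0 for the other lines.

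Fut9, the target of MC38-FUT9, was present in the activation lines and close to absent elsewhere. It was 955, 641 and 676 in MC38-FUT9 and 209, 171 and 186 in MC38-FUT4. In MC38-MOCK#2 it was 0, 0 and 1, and in the other 5 lines it ranged from 0 to 7. Thus the samples of MC38-FUT9 lay above those of the line labelled FUT4, which in turn lay above all the remaining samples. The 7 came from MC38-CMAS KO, in which the other samples were 2 and 1. In bulk RNA, fewer cells expressing a gene and less RNA per cell cannot be told apart. At its highest, Fut9 reached 69.1 normalized counts per kilobase, a level between the medians of Fut10 and Pofut2.

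Fut4, the labelled target of MC38-FUT4, was 1, 0 and 1 in that line and 0 in each of the other 21 samples. The RNA measurements of the line labelled FUT4 therefore go against its label, since its labelled target stayed within the floor of 3 normalized counts and Fut9 did not. No fold is given for Fut4. Its adjusted p in limma against MC38-MOCK#2 was 0.30, or 0.032 without MC38-FUT4 replicate 2, a fit in which the compared values were still 1 and 1 against 0. The 1 and 1 came from replicates 1 and 3, both of passage 7. Protein and cell surface glycans were not analysed here.

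**Figure D2:**
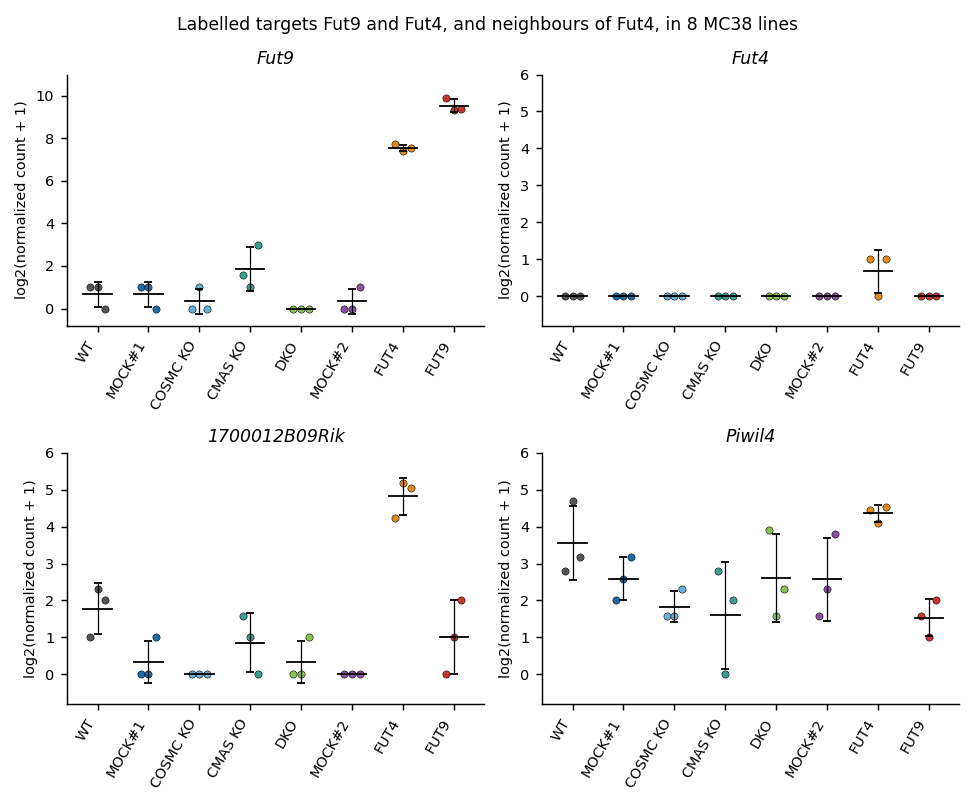
Fut9, Fut4 and the Fut4 neighbours 1700012B09Rik and Piwil4 in 8 lines, as log2 of normalized count plus 1, where points are samples, horizontal lines are means and bars are SD (n = 3). Fut9 was high in FUT9 and FUT4, Fut4 did not exceed a normalized count of 1, and 1700012B09Rik was highest in the 3 samples labelled FUT4.

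Genes around both targets were examined next, because an activator is placed by its guide in the DNA. Within 250000 bases of the start of Fut4 there were 20 other genes, of which 7 were 0 in all samples and 6 reached 10 in at least 1 sample. 1700012B09Rik, whose start lies 18637 bases from that of Fut4, was 18, 35 and 32 in the line labelled FUT4, 0 in all 3 samples of MC38-MOCK#2 and 0, 1 and 3 in MC38-FUT9. It was called higher in the line labelled FUT4 than in MC38-MOCK#2 (adjusted p = 0.000615, limma) and lower in MC38-FUT9 than in the line labelled FUT4 (adjusted p = 0.00259). Piwil4, a member of the Piwi family of small RNA binding proteins that starts 11660 bases away, was 21, 16 and 22 in the line labelled FUT4 and 2, 4 and 13 in MC38-MOCK#2. In MC38-WT it was 6, 25 and 8, which includes the highest of the 24 samples. The line labelled FUT4 and MC38-MOCK#2 did not overlap, but the difference was not called (adjusted p = 0.084), whereas that between MC38-FUT9 and the line labelled FUT4 was (adjusted p = 0.00142). So the line labelled FUT4 had higher RNA of a gene next to Fut4 while Fut4 itself stayed within the floor. Around the start of Fut9 there were 6 other genes, of which 5 were 0 in all samples and none reached 10.

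The first test asked which fucosyltransferases differed between MC38-FUT9 and its activation control. Of all genes tested, 24.1% were called (adjusted p below 0.05 in limma), and of 8 members tested only Fut9 was. Its log2 fold change was 9.21 ± 0.34 (SE, n = 3 per line) with an adjusted p of 5.21e-05. Because MC38-MOCK#2 held a single normalized count, the ratio of the sums, 2272, had a 95% counting interval of 407 to 89778, and intervals of this kind cover counting error only. Fut11 was 68, 76 and 78 in MC38-FUT9 and 91, 94 and 109 in MC38-MOCK#2. These values did not overlap, as was the case for 36.8% of genes, and the log2 difference of -0.40 ± 0.13 was not called (adjusted p = 0.076). Fut10 was 382, 421 and 420 against 302, 323 and 392, a log2 difference of 0.27 ± 0.11 (adjusted p = 0.13) that was called without MC38-MOCK#2 replicate 3 (adjusted p = 0.0259), which raised the count of called members to 2. Fut8, Pofut1 and Pofut2 differed by 0.02 ± 0.19, -0.09 ± 0.10 and 0.06 ± 0.13 on the log2 scale, within the spread between samples. The median log2 difference of the members tested was 0.04, beside 0.01 for all genes.

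The line labelled FUT4 was compared with the same control, so the 2 activation comparisons share the MC38-MOCK#2 samples. Here 16.1% of genes were called, and 2 of the 10 members tested, Fut9 higher and Fut11 lower. For Fut9 the log2 fold change was 7.23 ± 0.36 (SE, n = 3 per line, adjusted p = 0.000148), with a ratio of sums of 566 and a 95% counting interval of 101 to 22395. Fut11 was 27, 26 and 19 in the line labelled FUT4, entirely below the 91, 94 and 109 of MC38-MOCK#2 (32.1% of all genes did not overlap here), and the log2 fold change of -2.00 ± 0.20 amounted to a 3.99-fold lower level (adjusted p = 0.00138). Fut8 was 338, 227 and 297 against 168, 201 and 283, values that overlapped (adjusted p = 0.27). Fut1 was 1, 2 and 1 against 0, 0 and 0, within the floor, and its adjusted p was 0.054. Without MC38-FUT4 replicate 2, Fut1 and Fut4 were also called (both adjusted p = 0.032) and the count rose to 4, with both genes still within the floor. The samples of the line kept in that fit, replicates 1 and 3, were both of passage 7. The median log2 difference of the members was 0.13, beside 0 for all genes.

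Compared directly, the lines labelled FUT9 and FUT4 differed in 4 of 10 members, where 31.5% of all genes were called. Fut9 was higher in MC38-FUT9 by 1.98 ± 0.16 on the log2 scale (adjusted p = 0.000245), and the ratio of sums was 4.01 (95% counting interval 3.66 to 4.41). Fut11 was higher by 1.60 ± 0.19, a 3.03-fold difference (adjusted p = 0.00102), with 68 to 78 in MC38-FUT9 and 19 to 27 in the line labelled FUT4. Fut9, Fut10 and Fut11 did not overlap between these lines, as 41.4% of all genes did not. Fut10 was 1.40-fold higher in MC38-FUT9 (log2 0.48 ± 0.07, adjusted p = 0.00249), its lowest value of 382 lying above the 303 that was the highest in the line labelled FUT4. Fut1, with values of 0 against 1 to 2, was called lower (adjusted p = 0.026) although both lines were within the floor, and this call was lost with a pseudocount of 5 (adjusted p = 0.054). Without MC38-FUT4 replicate 2 the count of called members was 6, with Fut4 (adjusted p = 0.0121) and Fut8 (0.0128) added. That fit kept only MC38-FUT4 replicates 1 and 3, both of passage 7 and the closest pair within any line. Fut4 was still within the floor in it.

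**Figure D3:**
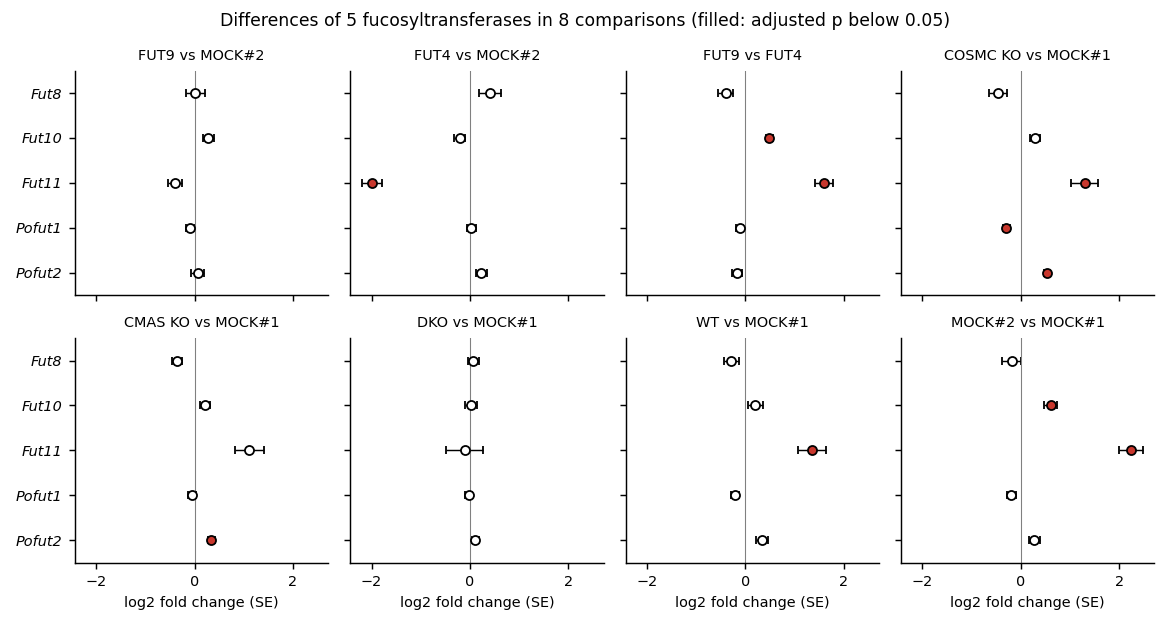
Log2 fold change (x axis, with SE, n = 3 per line) of the 5 members with RNA in all samples, in 8 comparisons of the first-named line with the second. Filled points mark an adjusted p below 0.05 in limma, and Fut11 had the widest range of differences, from -2.00 to 2.24.

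Among the knockout lines, Fut11, Pofut2 and Pofut1 differed between MC38-COSMC KO and MC38-MOCK#1, that is 3 of 8 members tested, where 11.6% of all genes were called (2563 genes, and 675 without MC38-COSMC KO replicate 2). Both lines were sampled at passages 4, 5 and 6. Pofut2 was 729, 713 and 722 in MC38-COSMC KO and 503, 474 and 519 in MC38-MOCK#1, so the lines did not overlap, as was the case for 28.4% of all genes. It was 1.45-fold higher (log2 0.53 ± 0.06, adjusted p = 0.00303), and it remained called when any single sample was left out (adjusted p between 0.0101 and 0.0366), though not with the replicate number, here the passage, as a block (adjusted p = 0.0878). Fut11 was 64, 42 and 47 against 16, 18 and 27, again without overlap, a 2.46-fold difference (log2 1.297 ± 0.278, adjusted p = 0.027). Pofut1 was 1409, 1457 and 1286 against 1692, 1599 and 1782, and it was 1.22-fold lower (log2 -0.29 ± 0.07, adjusted p = 0.039). Fut11 was no longer called without any single sample other than MC38-MOCK#1 replicate 3 (adjusted p up to 0.11), and Pofut1 was not called when any of the 6 samples was left out (adjusted p 0.0856 to 0.11). Sec1 was 16, 19 and 13 against 69, 61 and 32 (log2 -1.64 ± 0.33, adjusted p = 0.022), and it was called without MC38-MOCK#1 replicate 3 but not without any of the other 5 samples (adjusted p up to 0.112).

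In MC38-CMAS KO 1 of 7 members was called against MC38-MOCK#1, where 5.76% of all genes were (1268 genes, and 122 without MC38-MOCK#1 replicate 2). Pofut2 was 609, 629 and 651 against 503, 474 and 519, or 1.26-fold higher (log2 0.34 ± 0.07, adjusted p = 0.037), and this call was lost when any of the 6 samples was left out (adjusted p 0.0505 to 0.122). Fut11 was 34, 43 and 58 against 16, 18 and 27, without overlap (log2 1.11 ± 0.30, adjusted p = 0.081). Fut8 was 202, 187 and 177 against 240, 253 and 232, also without overlap (log2 -0.36 ± 0.09, adjusted p = 0.075). Samples did not overlap for 24.3% of all genes in this comparison. 

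In MC38-DKO none of 8 members was called by limma, and none had an unadjusted p below 0.05. Of all 21738 genes tested, 1632 had an unadjusted p below 0.05. Only 20 genes, 0.092% of those tested, were called in this comparison, and 0 to 4 when a sample was left out. Fut11 was 14, 15 and 29, Pofut2 was 537, 513 and 552, and Fut8 was 276, 258 and 227, so that Fut11 and Fut8 overlapped with MC38-MOCK#1. Pofut2 overlapped too, at 513 to 552 against 474 to 519, with a log2 difference of 0.10 ± 0.08. Samples of the lines did not overlap for 11.2% of all genes.

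The interaction term of the 2 labelled targets compares MC38-DKO minus MC38-CMAS KO with MC38-COSMC KO minus MC38-MOCK#1. By the labels the lines of each pair differ in the COSMC target, whose loss an RNA level cannot show. C1galt1c1 RNA did not differ alike in the 2 pairs. It averaged 182 ± 21 (SD, n = 3) in MC38-DKO and 183 ± 32 in MC38-CMAS KO, which overlapped, against 144 ± 20 in MC38-COSMC KO and 238 ± 16 in MC38-MOCK#1, and its own interaction was called (0.73 ± 0.21, adjusted p = 0.0201). That call was lost without MC38-COSMC KO replicate 3 (adjusted p = 0.0533). Of 7 members tested 5 were called, while 22.1% of all genes were. Among genes with a mean of at least 10, 5 of 5 members were called, beside 4615 of 13532 genes. For Fut11 the log2 difference was 1.297 between MC38-COSMC KO and MC38-MOCK#1 and -1.22 between MC38-DKO and MC38-CMAS KO, giving an interaction of -2.52 ± 0.46 (adjusted p = 0.00138). For Pofut2 the differences were 0.53 and -0.24 (interaction -0.77 ± 0.10, adjusted p = 6.21e-05), and for Fut8 they were -0.46 and 0.42 (interaction 0.88 ± 0.22, adjusted p = 0.0102). These 3 members thus had opposite signs in the 2 pairs of lines, and their calls were kept when any of the 12 samples was left out. Fut10 differed by 0.29 and -0.19 (interaction -0.48 ± 0.15, adjusted p = 0.036), and Pofut1 by -0.29 and 0.02 (interaction 0.31 ± 0.10, adjusted p = 0.045). The call of Fut10 was kept only without replicate 1 or 3 of MC38-DKO, replicate 3 of MC38-CMAS KO or MC38-MOCK#1, or replicate 1 of MC38-COSMC KO, and was lost in the other 7 of 12 fits (adjusted p up to 0.092). That of Pofut1 was kept only without MC38-CMAS KO replicate 3, MC38-COSMC KO replicate 2, MC38-DKO replicate 1 or MC38-MOCK#1 replicate 2, and was lost in the other 8 (adjusted p up to 0.116). Sec1 showed the same crossing, with -1.64 and 1.22 (interaction 2.86 ± 0.44, adjusted p = 0.000353). In each of these genes the MC38-DKO mean lay nearer to that of MC38-MOCK#1 than the MC38-COSMC KO mean did. This nearness was not particular to them. Against MC38-MOCK#1, 0.092% of all genes were called in MC38-DKO and 11.6% in MC38-COSMC KO.

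**Figure D4:**
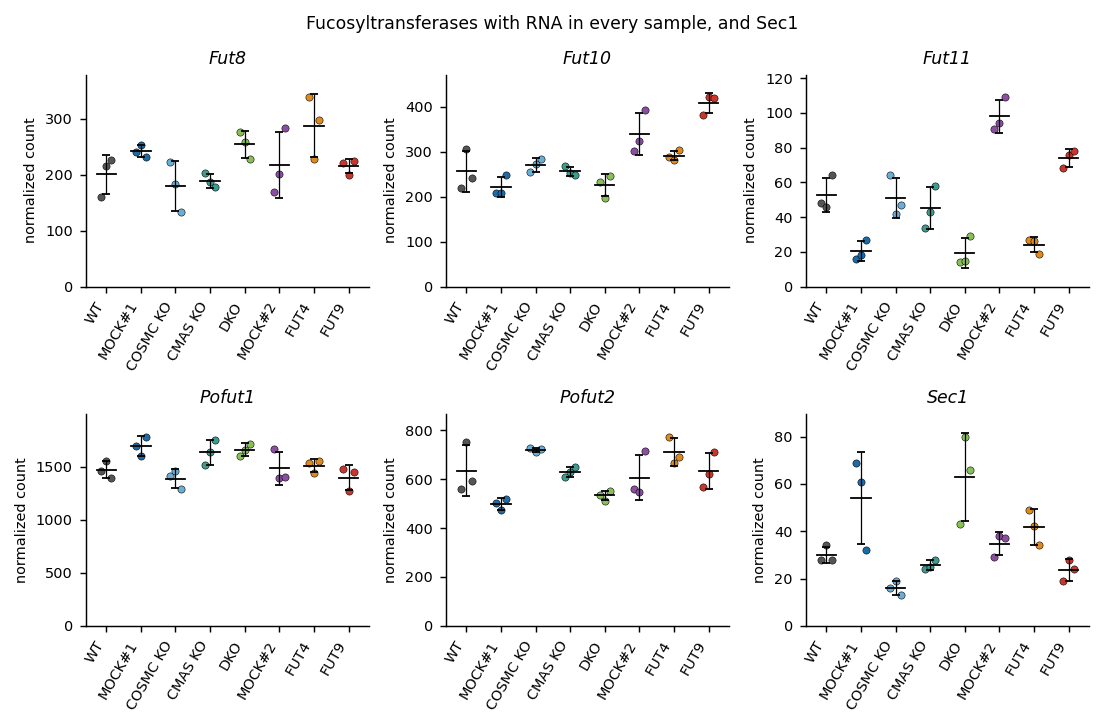
Normalized counts (linear axis from 0) of the 5 members with RNA in every sample and of Sec1, where points are samples, horizontal lines are means and bars are SD (n = 3). Fut11 was 16 to 27 in MOCK#1 and 14 to 29 in DKO but 91 to 109 in MOCK#2, while Pofut1 stayed between 1265 and 1782.

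Unmodified cells and the control of the activation lines were also set against MC38-MOCK#1. In these comparisons passage number, puromycin (for MC38-WT) and the CRISPR system differ together with the line and cannot be told apart. In MC38-WT 1 of 8 members was called, where 5.51% of all genes were (1192 genes, and 31 without MC38-MOCK#1 replicate 2). Fut11 was 48, 46 and 64 against 16, 18 and 27, without overlap, as for 23.4% of all genes. It was 2.55-fold higher (log2 1.35 ± 0.28, adjusted p = 0.041), and the call was lost when any of the 6 samples was left out (adjusted p 0.0628 to 0.16). Pofut2, called higher in MC38-COSMC KO and MC38-CMAS KO, was 559 to 754 in MC38-WT against 474 to 519, also without overlap. It was called in MC38-WT only with all 8 lines in a single fit. In MC38-MOCK#2 2 of 8 members were called, where 11.3% of all genes were. Fut11, at 91 to 109, lay apart from the 16 to 27 of MC38-MOCK#1, as 28.7% of all genes did, and was 4.74-fold higher than in MC38-MOCK#1 (log2 2.24 ± 0.24, adjusted p = 0.00305), and this call was kept without any single sample. Fut10 was 302, 323 and 392 against 208, 208 and 247, 1.53-fold higher (log2 0.61 ± 0.13, adjusted p = 0.029), and this call was lost when any of the 6 samples was left out (adjusted p 0.0517 to 0.123). The 2 lines that received no target gene thus differed more in Fut11 than any other pair compared here.

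Over all 8 lines, 6 of 8 members tested differed in limma's F test (Fut8, Fut9, Fut10, Fut11, Pofut1 and Pofut2), where 48.2% of all genes did. Among genes with a mean of at least 10, 6 of 6 members were called, beside 9153 of 13515 genes. Fut11 averaged 98.0 ± 9.6 (SD, n = 3) in MC38-MOCK#2 and 74.0 ± 5.3 in MC38-FUT9, and these lines were apart from each other and from the next. MC38-WT, MC38-COSMC KO and MC38-CMAS KO followed at 52.7 ± 9.9, 51.0 ± 11.5 and 45.0 ± 12.1, and overlapped. Below these and apart from them, the lowest averages, 24.0 ± 4.4 in the line labelled FUT4, 20.3 ± 5.9 in MC38-MOCK#1 and 19.3 ± 8.4 in MC38-DKO, overlapped as well. Fut10 was highest in MC38-FUT9 (408 ± 22) and lowest in MC38-MOCK#1 (221 ± 23), and each line overlapped with the next in this order except at 1 step, between MC38-CMAS KO and MC38-DKO. Of the 5 members with RNA in every sample, Pofut1 had the narrowest relative range of line means, from 1384 ± 88 in MC38-COSMC KO to 1691 ± 92 in MC38-MOCK#1, and Pofut2 ranged from 499 ± 23 in MC38-MOCK#1 to 721 ± 8 in MC38-COSMC KO. Fut8 ranged from 180 ± 45 in MC38-COSMC KO to 287 ± 56 in the line labelled FUT4. Its lines overlapped at every step of the order, and its F test (adjusted p = 0.0449) was kept only without MC38-COSMC KO replicate 1, MC38-DKO replicate 3, MC38-FUT4 replicate 2, MC38-MOCK#2 replicate 1 or 3, or any MC38-WT sample, and was lost in the other 16 of 24 fits (adjusted p up to 0.126).

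Other genes of the fucose pathway were taken from fixed lists. Among 6 genes that supply GDP-fucose, Gmds, the dehydratase at its entry, and Slc35c1, the Golgi transporter, were called lower in MC38-FUT9 than in MC38-MOCK#2. Of all genes, 24.1% were called in this comparison. Gmds was 378, 448 and 392 against 486, 539 and 488 (log2 -0.31 ± 0.09, adjusted p = 0.046), and Slc35c1 was 391, 351 and 385 against 503, 497 and 429 (log2 -0.34 ± 0.09, adjusted p = 0.036). The call of Gmds was kept only without MC38-FUT9 replicate 2 (adjusted p up to 0.139 in the other 5 fits), and that of Slc35c1 only without MC38-MOCK#2 replicate 3 (up to 0.111). In the line labelled FUT4 only Gmds was called, at 337, 334 and 310 (log2 -0.62 ± 0.08, adjusted p = 0.00327), beside 16.1% of all genes. MC38-MOCK#2 had the highest Gmds mean of the 8 lines, 504 ± 30 (SD, n = 3), beside 384 ± 41 in MC38-MOCK#1. Fuca1, a lysosomal fucosidase, was 321, 292 and 311 in MC38-FUT9 and 349, 334 and 322 in the line labelled FUT4, against 433, 496 and 523 in MC38-MOCK#2. It was called lower in both (log2 -0.65 ± 0.09 and -0.53 ± 0.09, adjusted p = 0.00361 and 0.0106), and in MC38-MOCK#1 it was 301, 345 and 325. The call in the line labelled FUT4 was lost without MC38-FUT4 replicate 3 or MC38-MOCK#2 replicate 2 (adjusted p up to 0.0585). In the comparisons of the 3 knockout lines with MC38-MOCK#1 none of the 6 supply genes was called. The shares of all genes called were 11.6% in MC38-COSMC KO, 5.76% in MC38-CMAS KO and 0.092% in MC38-DKO.

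The O-fucose that Pofut1 adds to Notch receptors is extended by the fringe enzymes, and that of Pofut2 is extended by B3glct. Mfng, a fringe enzyme, was 7, 10 and 6 in MC38-FUT9, 97, 69 and 61 in MC38-MOCK#2 and 134, 158 and 148 in the line labelled FUT4. It was lower in MC38-FUT9 than in the control (log2 -3.14 ± 0.29, adjusted p = 0.000723) and higher in the line labelled FUT4 (log2 0.97 ± 0.19, adjusted p = 0.0163), the latter call being kept only without MC38-MOCK#2 replicate 1 or 3 (adjusted p up to 0.0823 in the other 4 fits). Mfng also varied among the other lines. It was 316, 275 and 232 in MC38-MOCK#1, 171, 171 and 162 in MC38-COSMC KO, 131, 142 and 110 in MC38-CMAS KO and 339, 395 and 426 in MC38-DKO. B3glct was 720, 703 and 719 in MC38-FUT9, 347, 379 and 344 in the line labelled FUT4 and 521, 579 and 600 in MC38-MOCK#2. Its log2 differences from the control were 0.34 ± 0.07 (adjusted p = 0.0176) and -0.67 ± 0.08 (adjusted p = 0.00327), and the former call was lost when any MC38-FUT9 sample was left out (up to 0.0653) or with the same total in every sample (0.0711). Of the 4 Notch receptors, Notch1 and Notch2 were called lower in MC38-FUT9, where 24.1% of all genes were called. Only Notch2 was called, also lower, in the line labelled FUT4, where 16.1% of all genes were. Notch1 was 474, 358 and 531 in MC38-FUT9 against 791, 610 and 884 (log2 -0.75 ± 0.18, adjusted p = 0.0279), a call kept only without MC38-MOCK#2 replicate 2 (up to 0.11 in the other 5 fits). Notch2 was lower by 0.37 ± 0.07 in MC38-FUT9 and by 0.48 ± 0.10 in the line labelled FUT4 on the log2 scale. The control MC38-MOCK#2 had the highest Notch2 mean of the 8 lines. It was called above MC38-MOCK#1 (log2 0.96, adjusted p = 0.00135 in limma), also without any single sample. Of the Notch2 differences from MC38-MOCK#2, the calls depended on single samples. The call in MC38-FUT9 was lost without MC38-FUT9 replicate 2 or 3 (adjusted p up to 0.0604). That in the line labelled FUT4 was lost without any sample other than MC38-FUT4 replicate 2 (up to 0.0893).

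The α1,3-fucosyltransferases act on chains built by other glycosyltransferases, and 5 of 9 of these tested were called in MC38-FUT9 against MC38-MOCK#2, with 4 lower and 1 higher, beside 24.1% of all genes. B3gnt3, which starts lactosamine chains on O-glycans, was 25, 26 and 35 against 202, 199 and 269 (log2 -2.92 ± 0.19, adjusted p = 0.000302). Gcnt2, which branches such chains, was 10, 14 and 13 against 63, 68 and 72 (log2 -2.37 ± 0.21, adjusted p = 0.000675). St3gal6, a sialyltransferase of terminal galactose, was 9, 16 and 5 against 191, 190 and 183 (log2 -4.23 ± 0.36, adjusted p = 0.000623). Each of the 3 genes was lower in MC38-FUT9 than in any other sample of the series. St3gal4, which catalyses a similar reaction, was higher in MC38-FUT9, at 627, 747 and 899 against 384, 426 and 479 (log2 0.81 ± 0.15, adjusted p = 0.00868). This call was lost without MC38-FUT9 replicate 2 or MC38-MOCK#2 replicate 2 (adjusted p up to 0.0558). Gcnt1, which forms the core branch of O-glycans, was lower by 0.66 ± 0.16 (adjusted p = 0.0241), a call kept only without MC38-FUT9 replicate 1 or MC38-MOCK#2 replicate 3 (up to 0.0969 in the other 4 fits).

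In the line labelled FUT4 also 5 of 9 were called, with 3 higher and 2 lower, beside 16.1% of all genes. B3gnt3 was 406, 319 and 391 and Gcnt2 was 119, 96 and 114, both higher than in MC38-MOCK#2 (log2 0.74 ± 0.15 and 0.68 ± 0.14, adjusted p = 0.0193 and 0.0203). B4galt4, a galactosyltransferase, was 28, 21 and 26 against 1, 0 and 1 (log2 4.02 ± 0.41, adjusted p = 0.00143), and it was 18, 24 and 28 in MC38-MOCK#1. St3gal6 was 131, 143 and 107, lower by 0.57 ± 0.13 (adjusted p = 0.0278), and B4galt1 was lower by 0.42 ± 0.08 (adjusted p = 0.0148). The calls of B3gnt3 and Gcnt2 were kept only without MC38-FUT4 replicate 2 or MC38-MOCK#2 replicate 3 (adjusted p up to 0.0992 and 0.0767 in the other fits), and that of St3gal6 only without MC38-FUT4 replicate 2 (up to 0.0934). The call of B4galt1 was lost without MC38-FUT4 replicate 1 or MC38-MOCK#2 replicate 2 (up to 0.0646). Thus B3gnt3, Gcnt2 and Mfng were below MC38-MOCK#2 in MC38-FUT9 and above it in the line labelled FUT4. All 3 differed between these lines directly (log2 -3.66 ± 0.17, -3.06 ± 0.19 and -4.11 ± 0.22, with adjusted p of 3.34e-05, 0.000102 and 5.51e-05 in limma). MC38-MOCK#2 was itself called lower than MC38-MOCK#1 in all 3 genes (adjusted p = 0.00737, 0.00647 and 0.00339 in limma). The call of B3gnt3 was lost without MC38-MOCK#1 replicate 1 or 2, and that of Gcnt2 without replicate 2. Their values were 403 to 480, 129 to 174 and 232 to 316 in MC38-MOCK#1. In the line labelled FUT4 they were 319 to 406, 96 to 119 and 134 to 158, with each mean below that of MC38-MOCK#1.

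**Figure D5:**
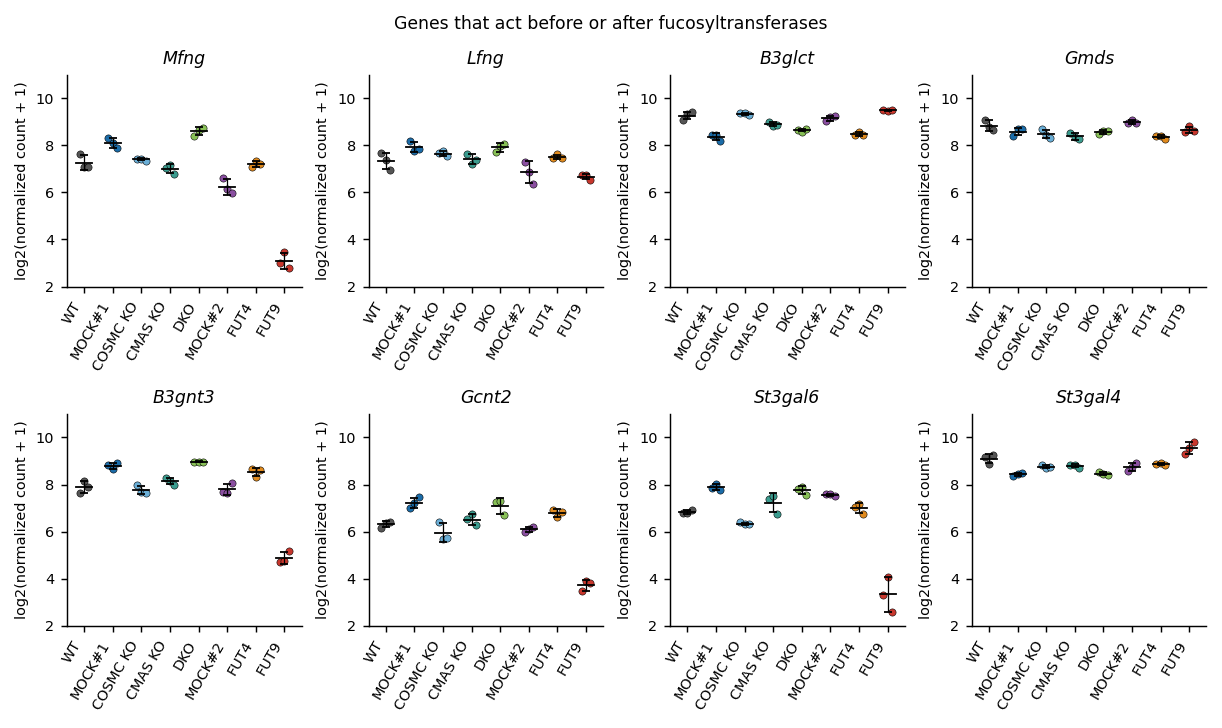
Genes that act before or after fucosyltransferases, as log2 of normalized count plus 1 in 8 lines, where points are samples, horizontal lines are means and bars are SD (n = 3). Mfng, B3gnt3, Gcnt2 and St3gal6 were lowest in the 3 samples of FUT9, at 5 to 35 normalized counts.

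In MC38-COSMC KO 5 of 9 of these chain-building genes were called against MC38-MOCK#1 (1 higher, 4 lower), beside 11.6% of all genes, and in MC38-CMAS KO 2 of 9 (1 higher, 1 lower), beside 5.76%. In MC38-DKO none of 9 was called, beside 0.092%, and in MC38-WT 4 of 9 (1 higher, 3 lower), beside 5.51%. In MC38-MOCK#2, which like MC38-MOCK#1 had no target gene, 3 of 9 were called, all lower, beside 11.3%. B3gnt3 was among those lower in MC38-COSMC KO, MC38-CMAS KO and MC38-WT (log2 -1.03 ± 0.12, -0.65 ± 0.11 and -0.89 ± 0.15), and its values in MC38-DKO were 502, 496 and 501, above the 452, 403 and 480 of MC38-MOCK#1. St3gal6 was lower in MC38-COSMC KO and MC38-WT (log2 -1.54 ± 0.11 and -1.05 ± 0.12). The call of B3gnt3 was lost when any sample was left out in MC38-CMAS KO (adjusted p up to 0.102) and kept only without MC38-WT replicate 2 in MC38-WT (up to 0.124), and that of St3gal6 in MC38-WT was lost without MC38-MOCK#1 replicate 1 or 2 (up to 0.0779). These comparisons share the MC38-MOCK#1 samples.

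Finally, the genes most alike in pattern were listed among 13515 genes with a mean of at least 10, by Pearson's correlation of log2(value + 1) over the 24 samples, which share lines. For Fut9 these were Ppp2r2d (r = 0.90), Vdac2 (0.90), Bcl2l2 (0.89), Dctn2 (0.89) and Mcfd2 (0.88). Bcl2l2, which encodes an anti-apoptotic protein, was 599 to 629 in MC38-FUT9, 529 to 571 in the line labelled FUT4 and 283 to 452 in the other lines. For Pofut1, the member with the highest level, they were Ccdc114 (0.83), Stk35 (0.80), Klhdc10 (0.79), Vav2 (0.76) and Reep4 (0.75).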

How the data were processed

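Single reads of 50 bases from a stranded mRNA kit were aligned to GRCm38 with HISAT2 2.0.4, counted per gene with featureCounts (Subread 1.5.0-p3) leaving out reads that overlapped several genes, and scaled by library size and TMM with edgeR 3.18.1. The deposited score per gene and sample is this scaled count, which the authors rounded to whole numbers. Raw depth is therefore unknown, and no count model was used for the calls. The counting intervals and counting error given here treat the scaled values as counts, so they are approximate. Fits used limma 3.58.1 (R 4.3.3) on log2(value + 1), with a mean-variance trend, 3 samples against 3, genes with at most 4 zeros among the 6 samples, and Benjamini-Hochberg adjustment over all genes tested, called below 0.05. The F test allowed 16 zeros among 24 samples and the interaction 8 among 12. Fold changes on this scale understate changes of low genes. On simulated data with 200 genes changed 2-fold, 137 were recovered for MC38-FUT9 against MC38-MOCK#2 (22564 genes) and 5 unchanged genes were called. The changed genes were drawn from higher expressed ones, and samples were simulated independently, with no shared effect of passage. The simulation therefore cannot give the error rate of the calls in the real data. The floor was 3 normalized counts, and no fold is given where both lines lie within it. MC38-FUT4 replicates 1 and 3, both of passage 7, differed with an SD of 0.255 on the log2 scale over 9781 genes, the smallest of 24 pairs within lines, but above counting error and so both were kept. Named genes were the 10 members, both knockout targets, Sec1, genes of pathway lists called in an activation comparison or in at least 3 comparisons, neighbours within 250000 bases of Fut4 and Fut9, and the 5 genes most alike to Fut9 and Pofut1. Members and lists were chosen with earlier results of these data known. Alternatives are given with their effect in the closing section.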

Additional observations from a re-analysis of the deposited data

Results flagged for a closer look

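For 5 members the difference of MC38-COSMC KO from MC38-MOCK#1 was not the same as that of MC38-DKO from MC38-CMAS KO, by limma's interaction term over 12 samples (log2 scale, adjusted over all genes). The interaction was -2.52 for Fut11 (adjusted p = 0.00138), -0.77 for Pofut2 (6.21e-05), 0.88 for Fut8 (0.0102), -0.48 for Fut10 (0.0365) and 0.31 for Pofut1 (0.0454). Of all genes tested, 22.1% were called by the same term. C1galt1c1, the labelled target that sets the lines of each pair apart, was 206, 166 and 175 in MC38-DKO and 215, 181 and 152 in MC38-CMAS KO, which overlapped, whereas it was called lower in MC38-COSMC KO. RNA level does not show whether the protein was lost, and the part of C1galt1c1 in these results was not tested.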

How the results depend on the processing

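No called difference changed direction under the alternatives run. Of 14 calls of members in the 8 pairwise comparisons, 9 were kept in every fit without a sample and 8 under every other setting than the replicate block. Of these 8, Pofut2 in MC38-COSMC KO, was lost with the block (adjusted p = 0.0878). For the counts of called members, the 3 in MC38-COSMC KO became 1 without a trend and 0 with the replicate block. The 1 in MC38-CMAS KO became 2 with a mean of at least 10 or all 8 lines in a single fit, and 0 with the same total in every sample, without a trend or with the block. The 1 in MC38-WT became 2 with all lines in a single fit and 0 without a trend or with the block, the 2 in MC38-MOCK#2 against MC38-MOCK#1 became 1 without a trend, and the 5 of the interaction became 3 without a trend. Leaving out each sample gave 0 to 0 for MC38-CMAS KO and MC38-WT, 1 to 3 for MC38-COSMC KO, 2 to 4 for the line labelled FUT4, 1 to 2 for MC38-FUT9, 1 to 1 for the 2 controls, 3 to 5 for the interaction, and an adjusted p of 0.032 to 0.379 for Fut4. By the labels, the same replicate number stood for the same passage among the CRISPR-Cas9 lines, and in MC38-FUT9 and MC38-MOCK#2. In the other comparisons it did not. In no comparison was every pair's correlation above 0.1. MC38-FUT9 with MC38-MOCK#2 had 0.0928, 0.193 and 0.185, and MC38-MOCK#2 with MC38-MOCK#1 had 0.165, 0.0821 and 0.254. In both, 6 of 6 samples were closest to their own number, against 0 to 4 of 6 in the remaining comparisons. With the block 9 of the 14 calls were kept, and genes called fell from 3509 to 1756 for the line labelled FUT4, from 2563 to 4 for MC38-COSMC KO, from 1268 to 1 for MC38-CMAS KO and from 1192 to 0 for MC38-WT. Without a trend they fell to 2270, 1135, 726 and 717, and from 5166 to 3430 for MC38-FUT9 and from 2454 to 1389 for MC38-MOCK#2. In MC38-DKO, 20 became 40 without a trend and 159 in the single fit of all lines, which gave 2207 for MC38-CMAS KO, 2981 for MC38-WT and 3976 for MC38-MOCK#2. Leaving out each sample gave 31 to 693 genes for MC38-WT, 122 to 876 for MC38-CMAS KO, 675 to 2137 for MC38-COSMC KO, 0 to 4 for MC38-DKO, 632 to 1737 for MC38-MOCK#2, 1621 to 3112 for the line labelled FUT4 and 3089 to 5065 for MC38-FUT9. The cause of these changes was not tested. Depth limits statements on Fut1, Fut2, Fut4 and Fut7, which lay at or near the floor.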
